A study of Mus musculus with 3 samples.

Results

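Astragaloside IV-treated plasmacytoid dendritic cells were compared with control cells, gene by gene, as the difference between 2 arrays. The comparison covered 10671 of the 19505 named genes measured. A gene was kept where its mean over the 3 arrays of the study was at or above a log2 level of 5.28. That level was the 95th percentile of the 1412 genes for olfactory and vomeronasal receptors, which blood cells do not normally use. Of the genes kept, 5626 had a mean of 9 or more and are called bright below.

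Plasmacytoid dendritic cells sense viral nucleic acids through endosomal Toll-like receptors and answer with large amounts of type I interferon. They reach lymph nodes mainly from the blood, and the receptor CCR7, which binds CCL21 and CCL19, guides the matured cell. Its signal passes through Gi proteins and PI3K to the machinery that remodels actin. Astragaloside IV is a saponin of Astragalus root and oxymatrine an alkaloid of Sophora root.

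All 3 arrays were run on cells from femur and tibia marrow of wild-type BALB/c mice, all male and 4 to 5 weeks old. Culture lasted 6 to 9 days with 100 ng/mL of Flt3 ligand, CpG oligodeoxynucleotides served to mature the cells through TLR9, and mature cells were sorted by flow cytometry. The astragaloside IV group received that compound for 12 h and CCL21 for 1 h, and the oxymatrine group received oxymatrine and CCL21 for the same times. The control group is labelled only as control, and neither the doses nor a vehicle or CCL21 step for the control is given in the sources used here, so compound and CCL21 cannot be told apart in a difference from control. How many mice gave the marrow, and whether it was pooled, is also not given. The question the series names is how both compounds inhibit migration of these cells. Each group had 1 array, so there are no replicates and no test, and all sizes below describe 3 arrays. The values were deposited as log2 levels and reached 19.67, above what a scanner of 16 bits can write, so the scale of the authors' summary step is not fully known and fold sizes depend on it. Triplets of levels are always in the order control, astragaloside IV, oxymatrine, and a difference is astragaloside IV minus control.

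The labelled cell type was checked on 27 measured plasmacytoid markers, of which 21 lay above background. Below background were Pacsin1, Mzb1, Cd209d, Dntt, Paqr5 and Upb1. Among those above it, the lineage regulator Tcf4 was at 14.37 in every array and Bst2 at 12.09, 12.09 and 12.08. Siglech, a surface lectin, was at 8.99, 8.99 and 9.02. With astragaloside IV, 9 of the 21 were lower by 0.1 or more and 0 higher, and 0 reached a difference of 0.322. Over all 10671 genes kept, 23.4% were lower and 16.6% higher by 0.1 or more. Klra17 was at 9.32, 9.02 and 9.07, Ly6d, a dim marker, at 6.89, 6.59 and 6.59 and Ccr9 at 9.46, 9.20 and 9.15. Of 10 cDC1 markers above background, 5 were lower by 0.1 or more and 1 higher, with a median of -0.07; the dim genes Itgae at 6.50, 5.77 and 6.01 and Gcsam at 6.64, 6.02 and 6.18 were the farthest below control. Of 11 cDC2 markers 0 were lower by that step and 3 higher. All 18 monocyte and macrophage markers measured were also above background, with a mean level of 11.64, 11.59 and 11.60. The mean level over the 27 plasmacytoid markers was lower, at 9.17, 9.09 and 9.10. The sorted cells therefore carried myeloid transcripts in each of the 3 arrays, and their part in the results below was not tested. In bulk RNA, fewer cells of a type and less RNA per cell cannot be told apart.

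Most genes lay close to their control level. Of the 10671 genes, 4358 (40.8%) were lower with astragaloside IV, 2961 (27.7%) exactly equal and 3352 (31.4%) higher. RMA, the method of the deposited values, summarises probes by a median polish that leaves many exact ties, so counts are also given for differences of 0.1 or more, where 2492 genes (23.4%) were lower and 1773 (16.6%) higher. The direction of the counts at all depended on scaling. Among unequal genes 43.5% were higher as deposited, 60.0% after centring on the median, 61.2% after quantile normalization and 57.4% after lowess centring, because those steps move the tied genes to one side. At 0.1 or more the share higher ranged over these settings from 41.6% to 48.2%, so more genes were lower in each. At a log2 difference of 0.322 or more, 683 genes (6.4%) were lower and 439 (4.11%) higher, at 1.5-fold 137 (1.28%) and 90 (0.843%), and at 2-fold 17 (0.159%) and 4 (0.0375%).

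The width of the differences fell with brightness. Their SD over genes was 0.26 between background and a level of 7, 0.23 from 7 to 9, 0.17 from 9 to 11, 0.13 from 11 to 13 and 0.10 at 13 and above. In the dimmest class 4.70% of genes were 1.5-fold apart and in the brightest 0 of 1294. Of the bright genes, 43.2% were lower, 26.2% equal and 30.6% higher, and the central 95% of their differences ran from -0.36 to 0.27. At 1.5-fold, a log2 difference of 0.585, 13 bright genes (0.231%) were lower and 7 (0.124%) higher, and at 0.322 or more 190 (3.38%) were lower and 88 (1.56%) higher. Of the bright genes past 0.322, 31.7% were higher as deposited and 42.9% after quantile normalization. Only Ypel1 (0.0178% of bright genes) was 2-fold apart.

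**Figure D1:**
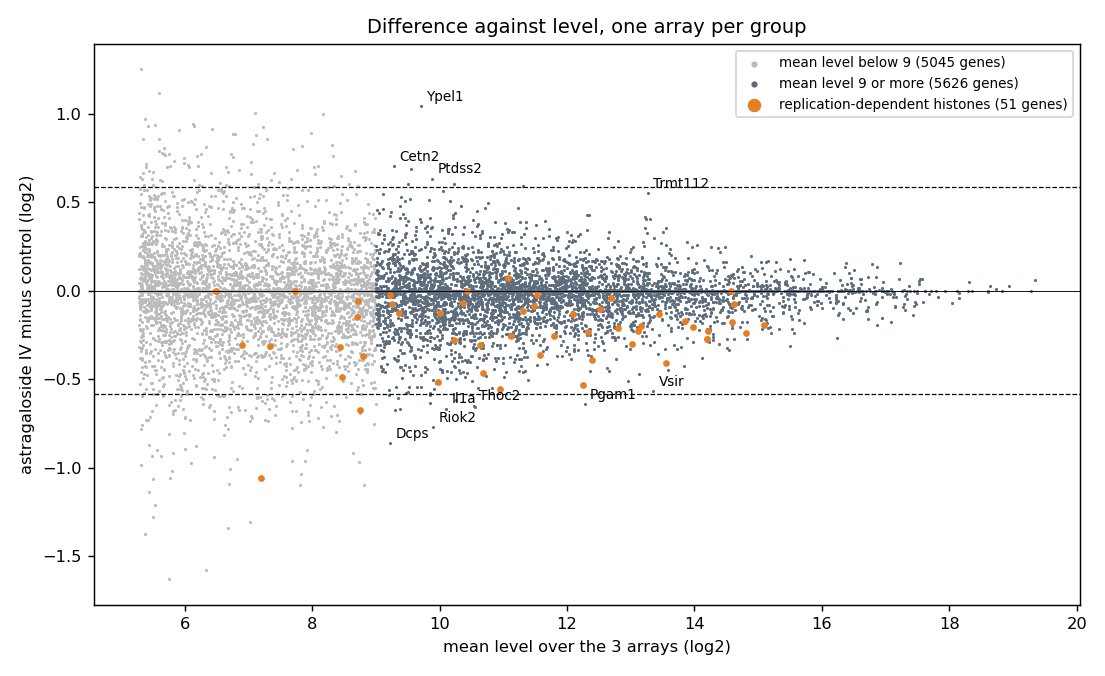
Each point is 1 of 10671 genes. The horizontal axis is the mean log2 level over the 3 arrays and the vertical axis the log2 difference astragaloside IV minus control. Genes below a mean of 9 are grey, brighter genes dark, and the 51 replication-dependent histone genes orange. Dashed lines mark 1.5-fold. The cloud narrows with level, and 46 of the 51 histone points lie below 0.

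The bright genes with the lowest differences have varied known roles. Dcps, the scavenger enzyme that hydrolyses the cap left after mRNA decay, was at 9.79, 8.93 and 8.93, a difference of -0.86. Riok2, a kinase of the maturing small ribosomal subunit, was at 10.23, 9.46 and 10.00, and Thoc2, the scaffold of the THO complex in mRNA export, at 10.75, 10.11 and 10.75. Dcps was as low with oxymatrine as with astragaloside IV, Thoc2 was low with astragaloside IV alone, and Riok2 lay in between with oxymatrine. The equal levels of Dcps and Thoc2 are exact ties, of the kind median polish leaves, as are those of Slc41a2 and Stradb below. How far such ties reflect equal RNA was not tested.

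Il1a, which encodes the cytokine interleukin-1 alpha, was at 10.50, 9.83 and 9.99 (-0.67), and Bcl2l14, a member of the BCL2 family, at 9.62, 8.95 and 9.33 (-0.67). Msra, the enzyme that repairs oxidised methionine, was at 9.69, 9.02 and 9.40 and Nab1, a corepressor of EGR factors, at 11.02, 10.36 and 10.30. Pgam1, phosphoglycerate mutase of glycolysis, was the brightest of the 15 lowest genes, at 12.68, 12.04 and 12.11, a difference of -0.64. The oxymatrine array lay between the other two for Il1a, Bcl2l14, Msra and Pgam1 and below both for Nab1.

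Uhrf1, which brings DNA methyltransferase to newly copied DNA, was at 10.14, 9.51 and 9.92, and Smc3, a subunit of the cohesin ring, at 10.17, 9.59 and 9.79. Gipc1, a PDZ adaptor that links membrane proteins to myosin VI, was at 10.53, 9.91 and 10.34. Kif3a, the motor subunit of kinesin-2, was at 9.76, 9.15 and 9.11, the same height in both treated arrays to within 0.1. Organelle genes were Atp13a2, a lysosomal polyamine exporter, at 9.51, 8.92 and 9.18, Trp53inp2, a regulator of autophagy and transcription, at 10.20, 9.61 and 9.72, and Man2b2, a lysosomal mannosidase, at 9.81, 9.23 and 9.37.

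The higher side was led by Ypel1 at 9.01, 10.05 and 10.08, a difference of 1.04, with oxymatrine at nearly the same level. Ypel1 belongs to a conserved family of small zinc-binding proteins. Of its 4 relatives, Ypel3 was at 12.44, 12.53 and 12.58 and Ypel5 at 12.51, 12.50 and 12.31, while Ypel2 at 4.42, 4.37 and 4.42 and Ypel4 at 3.84 in every array were below background. The size at Ypel1 was thus not shared by its bright relatives.

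Cetn2, a centrin of the centrosome and of DNA repair, was at 9.06, 9.76 and 9.05, high with astragaloside IV alone. Mrps25, a protein of the small mitochondrial ribosomal subunit, was at 9.29, 9.89 and 9.33, and Stradb, a pseudokinase partner of the kinase LKB1, at 9.36, 9.88 and 9.36. Both had the oxymatrine array within 0.1 of control. Tlr3, the endosomal receptor of double-stranded RNA, was at 9.19, 9.72 and 9.29 (0.53), and the zinc finger gene Zfp938 at 9.22, 9.92 and 9.50.

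For several other genes of the higher side the treated arrays were at most 0.225 apart. Trmt112, the shared activator of tRNA and rRNA methyltransferases, was the brightest, at 12.86, 13.42 and 13.53. Ptdss2, a phosphatidylserine synthase, was at 9.49, 10.12 and 10.05, Slc41a2, a magnesium transporter, at 9.68, 10.25 and 10.25, and Nip7, a factor of 60S subunit assembly, at 9.83, 10.33 and 10.34. Atraid was at 10.95, 11.54 and 11.44, Gas8, a subunit of the ciliary dynein regulator, at 8.74, 9.28 and 9.33, and Heatr5b at 9.89, 10.50 and 10.31. Ddx41, a DEAD-box helicase and DNA sensor, was at 9.55, 10.06 and 9.87 and Ranbp3, a nuclear export cofactor, at 9.19, 9.70 and 9.48, with oxymatrine between control and astragaloside IV.

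Just inside 1.5-fold among bright genes lay Trp53inp2 with -0.59, Atp13a2 with -0.59, Atraid with 0.59 and Heatr5b with 0.60. Just outside lay Man2b2 with -0.58, Smc3 with -0.58, Zfp51 with -0.57 and Vsir with -0.57. Vsir encodes VISTA, a checkpoint protein of myeloid and T cells, and was bright, at 13.68, 13.11 and 13.27.

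**Figure D2:**
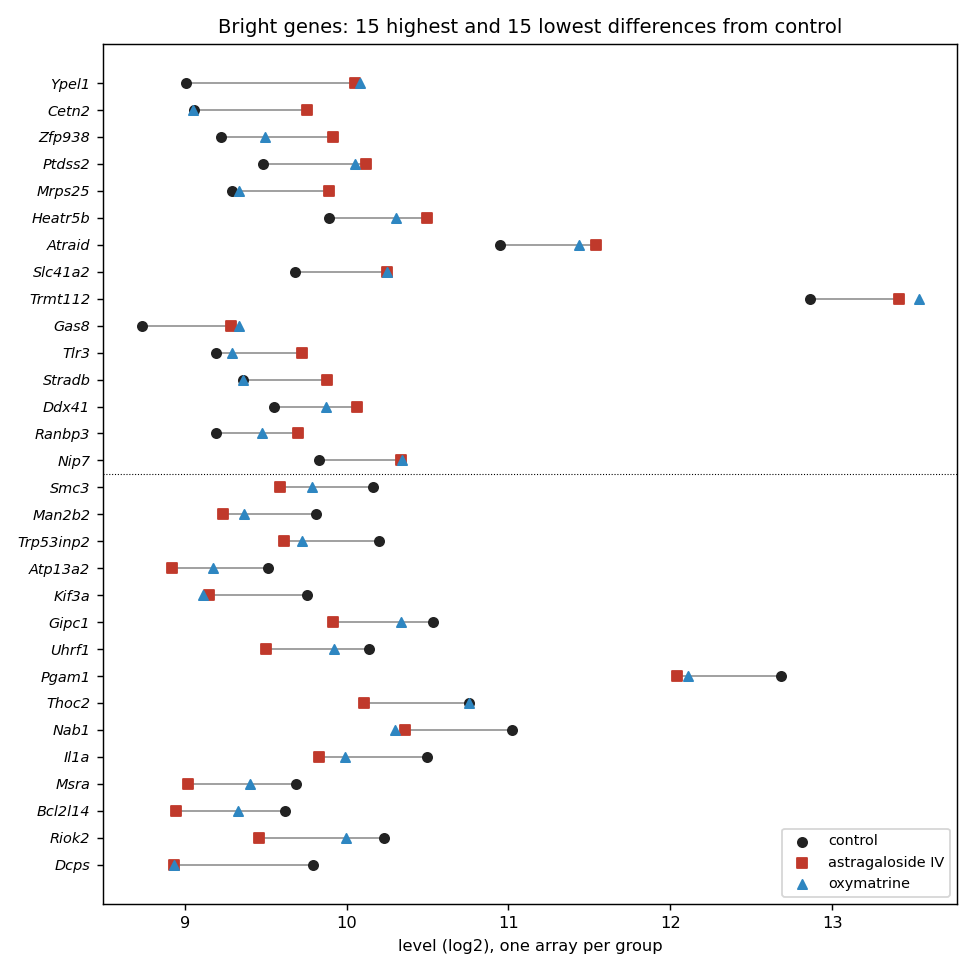
The 15 bright genes with the highest and the 15 with the lowest difference are drawn on a log2 level axis, with 1 point per array. Circles are control, squares astragaloside IV and triangles oxymatrine, and a line joins control to astragaloside IV. The triangle lies on the side of the square for most genes and on the circle for Cetn2, Stradb and Thoc2.

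The oxymatrine array shares its control with this comparison, so the position of all 3 arrays was also counted. Of the 20 bright genes at 1.5-fold, the oxymatrine array lay on the astragaloside IV side of control for 18. It was within 0.1 of astragaloside IV for 6 and within 0.1 of control for 3. Over 5529 bright genes with a usable name, astragaloside IV was lower by 0.322 or more than both other arrays for 32 genes (0.579%) and higher than both for 27 (0.488%). Control was above both treated arrays for 92 (1.66%) and below both for 33 (0.597%), and oxymatrine was below both others for 129 (2.33%) and above for 34 (0.615%). Fewer genes thus stood apart in the astragaloside IV array than in either other array.

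The genes in which astragaloside IV stood apart from both other arrays included several of signalling and vesicle traffic, picked here after their values were seen. Nras, a RAS GTPase, was at 11.42, 10.99 and 11.42. Plxna1, a semaphorin receptor, was at 10.21, 9.75 and 10.14, and Cd93, a C-type lectin domain receptor, at 9.45, 9.05 and 9.48. All these were lower with astragaloside IV and level between control and oxymatrine to within 0.1. On the higher side were Map3k5, the stress kinase ASK1, at 9.09, 9.53 and 9.09 and Atp1b3, a beta subunit of the sodium pump, at 13.14, 13.55 and 13.21. Vamp7, a SNARE of late endosomes and lysosomes, was at 11.16, 11.49 and 10.74, and the oxymatrine array lay below control there. Slc8b1, the mitochondrial sodium-calcium exchanger, was at 11.44, 11.07 and 11.59 and Atg16l2, a relative of the autophagy gene Atg16l1, at 9.62, 9.24 and 9.96. In both, control lay between the treated arrays.

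Among the 65 gene lists, only the 3 neutrophil markers above background had a lower median difference than the 61 histone genes, whose median was -0.17. Replication-dependent histone genes sit in clusters, are transcribed mainly in S phase and end in a stem-loop in place of a poly(A) tail. Replacement variants such as H3.3 and H2A.Z are made throughout the cell cycle from separate, polyadenylated transcripts. Of 53 replication-dependent genes measured, 51 were above background, and 46 of these were lower with astragaloside IV, 4 equal and 1 higher. At 0.1 or more 38 (74.5%) were lower and 0 higher, beside 23.4% and 16.6% of the main set, and their median difference was -0.21 against 0 over the main set. The split into replication-dependent genes and replacement variants was made after the values had been seen.

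Promoters of 4 histone genes are shown because the cluster genes differed together while the replacement variants did not. They are RefSeq sequences of GRCm38.p6, from 250 bases before to 50 after the annotated start, printed 5′ to 3′ on the strand of the gene. Capitals mark each match to an octamer ATTTGCAT, a CCAAT box CCAAT or a TATA box TATAAA, searched on both strands. H2bc7 lies at chr13:23574158-23574457 on the minus strand, H2bc14 at chr13:21721794-21722093 on the plus strand, H4c6 at chr13:23551619-23551918 on the minus strand and H3f3b at chr11:116024455-116024754 on the minus strand.
H2bc7: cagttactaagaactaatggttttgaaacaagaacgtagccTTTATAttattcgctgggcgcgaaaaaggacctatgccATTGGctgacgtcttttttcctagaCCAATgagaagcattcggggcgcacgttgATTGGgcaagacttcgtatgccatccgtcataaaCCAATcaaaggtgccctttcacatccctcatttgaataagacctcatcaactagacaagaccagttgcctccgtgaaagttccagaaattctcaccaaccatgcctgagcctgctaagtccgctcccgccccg
H2bc14: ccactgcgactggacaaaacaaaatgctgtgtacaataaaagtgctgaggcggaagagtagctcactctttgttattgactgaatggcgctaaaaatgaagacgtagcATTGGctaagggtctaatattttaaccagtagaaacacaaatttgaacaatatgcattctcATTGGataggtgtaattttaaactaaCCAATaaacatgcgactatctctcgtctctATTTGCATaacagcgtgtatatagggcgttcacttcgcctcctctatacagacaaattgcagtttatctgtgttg
H4c6: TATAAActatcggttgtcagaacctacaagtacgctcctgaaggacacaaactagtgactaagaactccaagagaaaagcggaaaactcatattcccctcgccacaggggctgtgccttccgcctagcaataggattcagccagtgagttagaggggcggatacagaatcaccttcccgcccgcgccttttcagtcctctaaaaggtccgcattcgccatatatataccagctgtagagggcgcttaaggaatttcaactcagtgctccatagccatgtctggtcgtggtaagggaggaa
H3f3b: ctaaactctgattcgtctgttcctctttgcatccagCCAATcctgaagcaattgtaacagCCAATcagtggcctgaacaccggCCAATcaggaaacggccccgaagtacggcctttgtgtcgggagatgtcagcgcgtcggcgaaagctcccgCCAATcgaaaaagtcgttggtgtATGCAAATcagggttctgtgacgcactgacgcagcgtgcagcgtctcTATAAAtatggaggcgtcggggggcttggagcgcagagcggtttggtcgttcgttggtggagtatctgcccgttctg

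A promoter was given for 47 of the 51 cluster genes. The octamer, which binds OCT1, was found in 11 of them (23.4%), beside 1.97% of all 27025 promoters and 1.68% of the 8725 main-set promoters. CCAAT was found in 40 (85.1%), beside 41.1% of all and 43.4% of main-set promoters, and TATAAA in 27 (57.4%), beside 15.7% and 9.5%. The octamer occurred in 6 of 13 H2A and 5 of 12 H2B promoters and in 0 of the H3, H4 and H1 promoters. CCAAT occurred in all H1, H2A, H2B and H3 promoters and in 3 of 10 H4 promoters. H3f3b, a replacement gene, also held all 3 motifs. Among H2B genes, the 5 with an octamer were all lower, with a median of -0.11, and of the 7 without, 5 were lower, with a median of -0.12. A match describes the letters only.

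The difference ran through every class of core and linker histone. All 9 H3 genes were lower, with a median of -0.27, and 10 of 11 H4 genes, with a median of -0.24. Of 13 H2A genes 12 were lower, with a median of -0.20, all 4 H1 genes, with a median of -0.23, and 11 of 14 H2B genes, with a median of -0.10. H2bc11 was the only gene higher, at 11.22, 11.30 and 10.68. H2B was the class with the median nearest 0 and the only one holding a higher member.

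H4c18 was at 13.85, 13.44 and 13.39. H2bc7 was at 11.33, 10.77 and 10.73, a difference of -0.55, and H4c6 at 12.54, 12.01 and 12.22, a difference of -0.53. H3c8 was at 10.25, 9.74 and 9.94, H2bc13 at 10.94, 10.47 and 10.61 and H3c11 at 12.68, 12.29 and 12.22. In each of these 6 genes control was the highest of the 3 arrays, and both treated arrays lay below it. H2bc14, whose promoter is shown with an octamer, was at 11.29, 11.04 and 11.04. The widest difference of the 51 was in H1f3, a dim linker histone gene, at 7.73, 6.67 and 7.20 (-1.06), followed by H2ac6 at 9.13, 8.45 and 8.67.

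The replacement variants did not share the difference. Of 7 above background, 3 were lower and 4 higher, 0 lower and 1 higher by 0.1 or more, with a median of 0.02. H2az1, which encodes H2A.Z, was at 16.12, 16.22 and 16.22. The H3.3 genes were H3f3a at 14.09, 14.02 and 13.86 and H3f3b at 15.10, 15.16 and 15.13. With astragaloside IV both H3.3 genes lay within 0.1 of control, on opposite sides.

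With oxymatrine, which was set against the same control array, 44 of the 51 cluster genes were lower by 0.1 or more and 0 higher, with a median of -0.25, beside 29.2% and 16.8% of the main set. Over all 61 histone genes above background, astragaloside IV was lower than oxymatrine for 16 and higher for 35, with a median of 0.03, where 32.5% of the main set were lower and 40.7% higher. The count of lower histone genes thus rests on the level of the control array, of which there was 1.

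Histone genes are short and near-identical, so their probe sets share sequence and the members are not independent. H3c14 and H3c15 had the same value in every array. Of 123 other genes spanning under 1000 bases, 41 (33.3%) were lower and 47 higher, beside 40.8% and 31.4% of the main set. Of 229 other bright genes under 3000 bases, 79 (34.5%) were lower and 92 higher, beside 43.2% and 30.6% of bright genes. The part of gene length or shared sequence in the histone difference was not tested. Under quantile normalization 35 cluster genes were lower by 0.1 or more and 1 higher, and in the other settings tried 37 to 39 and 0.

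**Figure D3:**
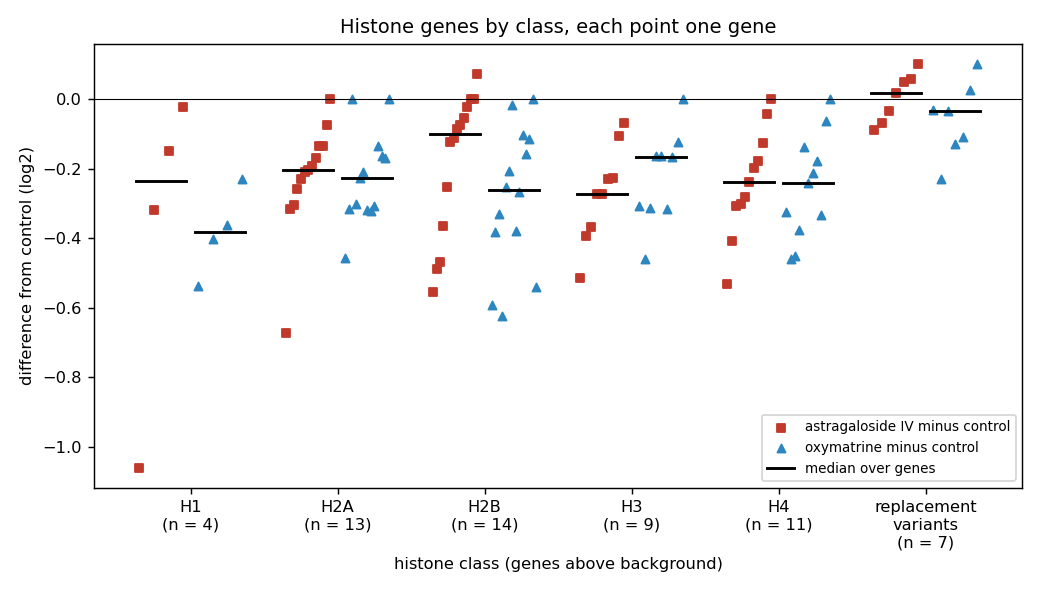
The log2 difference from control is drawn per histone gene, by class, for genes above background. Squares are astragaloside IV and triangles oxymatrine, both against the same control array, and bars are medians over genes. In all 5 replication-dependent classes both medians lie below 0, while the 7 replacement variants lie around 0.

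Genes of the cell cycle were set beside the histones. Of 47 cell cycle genes 20 were lower by 0.1 or more and 3 higher, beside 23.4% and 16.6% of the main set. The list was then divided, after the values had been seen, into DNA replication and mitosis with added members. Of 44 replication genes, 14 (31.8%) were lower by 0.1 or more and 6 higher, with a median of 0, and of 37 mitosis genes 19 (51.4%) were lower and 3 higher, their median being -0.11. Tpx2, which activates Aurora A on the spindle, was at 10.02, 9.48 and 9.63. Mastl, the Greatwall kinase, was at 9.66, 9.17 and 9.40 and Aurkb at 10.26, 9.98 and 9.73. In each of these genes oxymatrine also lay below control, while for Ube2c, at 10.08, 9.94 and 10.25, it lay above. The mitosis counts thus rest on the 1 control array, as the histone counts do. The replication genes held both directions: Rfc2 of the clamp loader was at 10.53, 10.10 and 10.04, while Gins4 of the replicative helicase was at 11.23, 11.62 and 11.22. Factors that process histone transcripts were also split. Slbp, which binds the stem-loop, was at 10.33, 10.26 and 9.97, and Casp8ap2, a factor of histone locus bodies, was higher, at 10.50, 10.88 and 10.41.

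Among migration genes, the receptors come before the ligands. Of 35 chemoattractant receptors measured, 21 were above background. Of these, 7 (33.3%) were lower by 0.1 or more and 1 higher, beside 23.4% and 16.6% of the main set. Their median was -0.06. Ccr7, which encodes the CCL21 receptor, was the brightest of the chemokine receptors and was at 16.32, 16.35 and 16.26. Cxcr4, the gene of the CXCL12 receptor, was at 13.58, 13.60 and 13.48 and Ccr2, that of the CCL2 receptor, at 10.43, 10.43 and 10.28. These 3 lay within 0.1 of control with astragaloside IV. The lower ones among bright receptors were Ccr9, which binds CCL25 and guides cells to gut and thymus, at 9.46, 9.20 and 9.15, Ccrl2, which presents chemerin, at 11.47, 11.23 and 11.30, and Cxcr5, which guides cells to B cell follicles, at 10.11, 9.94 and 9.94.

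Of 40 chemokines measured, 22 were above background, with a median of -0.10. Of these, 11 were lower by 0.1 or more and 3 higher, beside 23.4% and 16.6% of the main set. Cxcl2, which attracts neutrophils, was at 10.89, 10.51 and 10.45 and its relative Cxcl3 at 9.74, 9.60 and 9.47. The inflammatory chemokine gene Ccl4 was at 11.67, 11.52 and 11.75, Ccl9 at 15.31, 15.16 and 15.18, Ccl22, which attracts CCR4-bearing T cells, at 16.53, 16.40 and 16.56, and the interferon-induced Cxcl10 at 11.07, 10.92 and 11.04. Astragaloside IV had the lowest of the 3 values for Ccl4, Ccl9, Ccl22 and Cxcl10 but not for Cxcl2 and Cxcl3. With oxymatrine 6 of the 22 were lower by 0.1 or more and 2 higher, beside 29.2% and 16.8% of the main set.

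**Figure D4:**
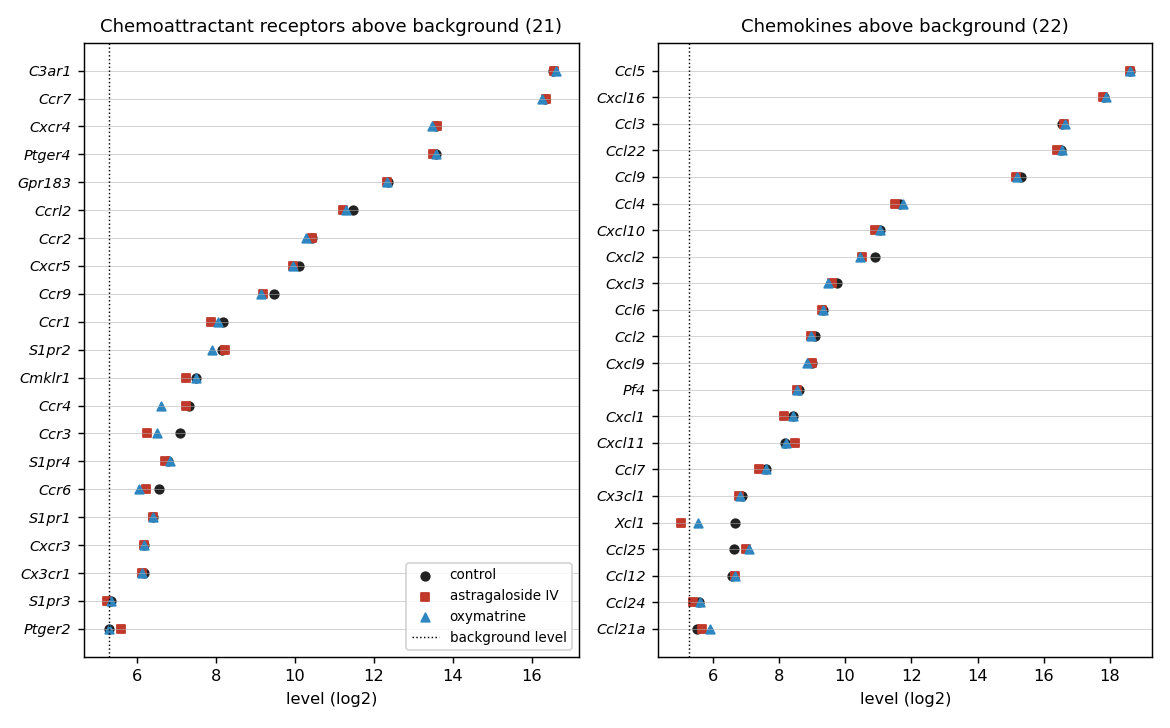
The left panel shows the log2 level of the 21 chemoattractant receptors and the right panel that of the 22 chemokines above background. Each array has 1 point per gene, and genes are ordered by their control level. Circles are control, squares astragaloside IV and triangles oxymatrine, and the dotted line is the background level of 5.28. The bright genes overlap closely in the 3 arrays, and the wide gaps, as in Xcl1, lie near the dotted line.

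Downstream of the receptors, 15 of 59 genes of G protein and PI3K signalling (25.4%) were lower by 0.1 or more and 4 higher, with a median of -0.01, a share near that of the main set. Ptk2b, the focal adhesion kinase relative PYK2, was at 9.66, 9.12 and 9.15, a difference of -0.55. Arrb1, beta-arrestin 1, which turns off and internalises receptors, was higher, at 11.95, 12.22 and 12.04, as was the adaptor gene Crkl, at 12.14, 12.33 and 12.12.

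Cytoskeleton genes held both directions, as did the main set, with 23.4% lower and 16.6% higher by 0.1 or more. Of 63 genes of actin nucleation and turnover, 10 (15.9%) were lower by 0.1 or more and 5 higher. The formin genes opposed each other, with Fmnl1 at 12.64, 12.31 and 12.31 and Daam1 at 8.83, 9.15 and 9.15. Of 30 myosin genes, 10 (33.3%) were lower and 2 higher, among them Tpm1, a tropomyosin, at 13.85, 13.64 and 13.76.

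Adhesion and microtubule genes gave no common direction. They are set beside 23.4% lower and 16.6% higher by 0.1 or more in the main set. Of 18 integrin genes, 2 were lower by 0.1 or more and 4 higher. Itgax, which encodes CD11c, was at 12.30, 11.96 and 12.24, and Itgb8, which activates latent TGF-beta, at 10.79, 11.05 and 10.73. Of 65 tubulin, kinesin and dynein genes 18 (27.7%) were lower and 11 higher. Besides Kif3a, Tuba1a was at 14.78, 14.50 and 14.58.

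In innate sensing, 3 of 25 genes of endosomal Toll-like receptor signalling were lower by 0.1 or more and 3 higher, 12.0% lower against 23.4% and 16.6% of the main set. Tlr7 was at 13.45, 13.45 and 13.43, Tlr9, the receptor of the CpG used for maturation, at 12.62, 12.53 and 12.62, and Irf7, the interferon factor downstream of both, at 15.05, 14.95 and 14.84. Away from the endosome, the bacterial lipopeptide receptors differed in opposite directions, Tlr2 at 12.92, 12.54 and 12.85 and Tlr1 at 13.06, 13.34 and 13.18. Tlr3, given above, was the member of the sensing genes farthest from control.

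Interferon-stimulated genes held slightly more members higher than lower. Of 52, all above background, 11 were higher by 0.1 or more and 6 (11.5%) lower, beside 16.6% and 23.4% of the main set. Counted at any size, 20 were higher and 17 lower, and the rest were exactly equal. Oasl2, an OAS relative, was at 12.04, 12.47 and 12.53 and Gbp2, a guanylate-binding GTPase, at 13.38, 13.71 and 13.42. Parp9, a partner of the ubiquitin ligase DTX3L, was lower, at 11.33, 10.92 and 10.75, as were Ifit1, at 10.83, 10.63 and 10.61, and Isg15, a ubiquitin-like modifier, at 10.35, 10.17 and 10.26. With oxymatrine, set against the same control, 18 were lower by 0.1 or more and 4 higher, beside 29.2% and 16.8% of the main set. Oasl2 and Parp9 lay on the same side of control in both treated arrays, and Gbp2 was high with astragaloside IV alone.

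Of 42 genes of the NF-kB pathway and immediate early genes, 16 (38.1%) were lower by 0.1 or more and 6 higher. The main set had 23.4% and 16.6%, and the median of the list was 0. Btg2, an antiproliferative early gene, was at 11.56, 11.17 and 11.10, Zc3h12a, the RNase Regnase-1 that degrades cytokine mRNA, at 11.50, 11.17 and 11.28 and Junb at 13.44, 13.18 and 13.10. The subunit gene Nfkb2 was at 14.47, 14.22 and 14.19, the coactivator gene Bcl3 at 12.81, 12.58 and 12.50 and Myc at 11.48, 11.25 and 11.15. Among other subunit genes, Relb was also lower, at 12.27, 12.06 and 11.99. Rela, at 15.33, 15.51 and 15.69, and Rel, at 16.45, 16.56 and 16.51, were higher in both treated arrays. Nfkbia, the inhibitor that NF-kB itself induces, was at 15.21 in control and 15.02 with astragaloside IV, and its difference from control with oxymatrine was -0.21.

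Among 24 inflammatory cytokines above background, 5 (20.8%) were lower by 0.1 or more and 1 higher, beside 23.4% and 16.6% of the main set. Besides Il1a, they held Tnf at 13.63, 13.28 and 13.38 and Il10, an anti-inflammatory cytokine, at 12.88, 12.61 and 12.77. Il6 was at 16.15 in every array and Il1b at 15.23, 15.29 and 15.21. The low members thus covered both inflammatory and anti-inflammatory cytokines, and the brightest, Il6, did not differ.

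Of 32 MHC and antigen processing genes, 8 were lower by 0.1 or more and 1 higher, a share lower near the 23.4% of the main set. H2-DMb1 and H2-DMb2, chains of the H2-M editor that loads class II molecules, were at 12.54, 12.27 and 12.51 and 13.50, 13.25 and 13.57. H2-Aa, the class II alpha chain, was at 15.59, 15.43 and 15.59. In these 3 the control and oxymatrine arrays were alike to within 0.1 and astragaloside IV lay below both. The costimulatory gene Cd80 was at 16.46, 16.30 and 16.26, Cd86 at 12.87 in every array and Cd40 at 13.13, 13.10 and 12.88.

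Growth factor receptors included some of the wider differences among bright genes. Of 34 interleukin and colony-stimulating factor receptors, 11 (32.4%) were lower by 0.1 or more and 3 higher. The main set had 23.4% and 16.6%. Flt3, the receptor for the ligand the cells were grown in, was at 9.83, 9.29 and 9.46, and Csf2ra, the GM-CSF receptor chain, at 11.67, 11.22 and 11.12. Both were low in each treated array. Csf3r, the G-CSF receptor of neutrophils, was at 10.59, 10.11 and 10.49, with oxymatrine close to control.

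Csf3r is also 1 of 18 neutrophil markers measured, of which 3 were above background. The others above it were Lcn2, lipocalin 2, at 13.21, 12.71 and 12.94 and Mmp8, a collagenase, at 7.94, 7.68 and 7.94. All 3 were lower with astragaloside IV. The defining genes S100a8 and S100a9 had means below background, S100a8 at 5.52, 4.71 and 4.84 and S100a9 at 5.04 in every array, and the mean level over the 18 was 5.13, 5.02 and 5.19. Of 14 T and NK cell markers 5 were above background, of 12 B cell markers 3 with Cd79a below it, and of 10 erythroid and mast cell markers 3. Il2rb, a shared chain of the IL-2 and IL-15 receptors, was at 7.33, 6.32 and 6.48 and Cd5 at 8.17, 7.73 and 7.73, and Car2, carbonic anhydrase 2, was at 14.02, 13.60 and 13.91. Cd3d, Cd3e and Cd3g, the CD3 chains of T cells, were all below background. The part of such cells in the results was not tested.

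The unfolded protein response was read by branch, beside 23.4% lower and 16.6% higher by 0.1 or more in the main set. Of 23 sensors and chaperones of the ATF6 branch, 5 (21.7%) were lower by 0.1 or more and 2 higher, which became 3 and 3 under quantile normalization. Hspa5, the ER chaperone BiP, was at 16.85, 16.84 and 16.70 and Ern1, the sensor IRE1, at 10.91, 11.12 and 11.02. Xbp1, the factor IRE1 activates by splicing, was at 14.47, 14.19 and 14.20. Of 49 targets of IRE1 and XBP1, 12 (24.5%) were lower and 2 higher. Edem1, which sorts misfolded proteins for degradation, was at 14.30, 13.92 and 14.15, and the co-chaperones Dnajb9 and Dnajc3 were at 13.18, 12.97 and 13.14 and 11.36, 11.16 and 11.36. Of 37 targets of PERK, ATF4 and CHOP, 13 (35.1%) were lower and 6 higher, with Slc7a5, an amino acid transporter, at 12.18, 11.89 and 11.74, Atf4 itself at 14.30, 14.20 and 14.40 and Ddit3, which encodes CHOP, at 11.94, 12.00 and 11.88. The branches thus differed little from the main set in median, each at 0 or -0.01.

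Other stress genes were mixed. They are read beside 23.4% lower and 16.6% higher by 0.1 or more in the main set. Of 24 heat shock genes, 6 were lower by 0.1 or more and 4 higher, and 5 and 5 under quantile normalization and lowess centring. Dnajb4, an HSP40 co-chaperone, was at 9.84, 9.30 and 9.79 and Bag3, an HSP70 cofactor of selective autophagy, was higher, at 9.05, 9.34 and 9.37. Of 32 genes of the NRF2 oxidative stress response, 12 (37.5%) were lower and 2 higher, the median being -0.04. Gclc, the catalytic subunit of the first enzyme of glutathione synthesis, was at 11.20, 10.82 and 10.96, Cat, catalase, at 17.20, 17.02 and 17.04, and Abcc4, an exporter of conjugates and nucleotides, at 10.28, 9.79 and 10.28. Gclc and Cat were lower in both treated arrays and Abcc4 with astragaloside IV alone.

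Lists of lipid metabolism held more genes lower than higher, as did 54 of all 65 lists. By 0.1 or more, 23.4% of the main set were lower and 16.6% higher. Of 24 genes of cholesterol synthesis and uptake, 8 (33.3%) were lower by 0.1 or more and 0 higher, and the 0 held in every setting tried, although under quantile normalization 11 were lower at all and 13 higher. Hsd17b7, a sterol reductase, was at 12.46, 12.09 and 12.44, Cyp51, a demethylase of lanosterol, at 12.48, 12.14 and 12.31, Hmgcs1, HMG-CoA synthase, at 14.71, 14.44 and 14.38 and Mvd at 10.95, 10.73 and 10.73. Oxymatrine matched control for Hsd17b7 and lay at the level of astragaloside IV or below it for Hmgcs1. With oxymatrine 10 of the 24 were lower by 0.1 or more and 4 higher, beside 29.2% and 16.8% of the main set.

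Of 24 targets of the liver X receptor and genes of fatty acid synthesis, 19 were lower, 1 equal and 4 higher. By 0.1 or more, 8 (33.3%) were lower and 1 higher, beside 23.4% and 16.6% of the main set. Abca1 and Abcg1, the cholesterol exporters, were at 9.32, 9.04 and 9.51 and 12.82, 12.62 and 12.79, and Nr1h3, which encodes the receptor LXR alpha, was at 11.62, 11.46 and 11.47. Scd1, a stearoyl desaturase, was at 8.77, 8.47 and 8.43. For Abca1 the treated arrays lay on opposite sides of control. With oxymatrine 6 of the 24 were lower by 0.1 or more and 6 higher, beside 29.2% and 16.8% of the main set. With astragaloside IV, 8 of 24 PPARgamma targets were lower by 0.1 or more and 3 higher, beside 23.4% and 16.6% of the main set. Among the lower ones were the fatty acid binding proteins Fabp4 at 9.37, 9.14 and 9.48 and Fabp5 at 13.35, 13.12 and 13.14.

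Lists of energy metabolism held both directions. Of 29 glycolysis genes, 7 (24.1%) were lower by 0.1 or more and 4 higher, beside 23.4% and 16.6% of the main set. Besides Pgam1, they held the hexokinase genes, of which Hk1 at 12.62, 12.33 and 12.30 and Hk2, whose mean was below 9, at 9.08, 8.64 and 8.88 were lower and Hk3 at 9.82, 10.16 and 10.16 was higher. Egln1, an oxygen-sensing hydroxylase of HIF, was at 11.58, 11.23 and 11.20. Of 45 complex I genes, which include the assembly factors Ndufaf1 to Ndufaf8 beside the subunits, 6 were lower and 7 higher. Of 55 genes of complexes II to V and cytochrome c, 12 (21.8%) were lower and 8 higher. Atp5pb, a subunit of the ATP synthase stalk, was at 13.44, 12.97 and 12.97 and Uqcrc2, a core protein of complex III, at 10.09, 9.63 and 9.63.

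Genes of protein synthesis mostly lay within 0.1 of control, where 23.4% of the main set were lower and 16.6% higher by that step. Of 62 cytosolic ribosomal protein genes, 6 (9.68%) were lower by 0.1 or more and 4 higher, which turned to 5 and 8 under quantile normalization and 4 and 6 under lowess centring, and 0 reached 0.322 in either direction. Rps19 was the farthest, at 14.05, 13.73 and 13.59. Mitochondrial ribosomal proteins were lower in 15 of 74 and higher in 7, or 12 and 13 under quantile normalization. Cytosolic tRNA synthetases were lower in 3 of 20 and higher in 1, with Vars, the valine enzyme, at 9.25, 8.94 and 8.84.

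In protein turnover, 14 of 47 proteasome genes (29.8%) were lower by 0.1 or more and 5 higher, and 0 reached 0.322. The main set had 23.4% lower and 16.6% higher. Psmd1, a scaffold of the regulatory particle, was at 12.88, 12.62 and 12.64, and Psmf1, an inhibitor of the proteasome, was at 13.26, 13.55 and 13.31. Of 35 TRIM genes, which encode ubiquitin ligases, 15 (42.9%) were lower and 4 higher, beside the same 23.4% and 16.6%. Trim56, which acts in nucleic acid sensing, was at 10.84, 10.41 and 10.50 and Trim25, a ligase of the RIG-I pathway, at 10.75, 10.45 and 10.45. Psmf1 and Psmd1 thus differed in opposite directions, while Trim56 and Trim25 both lay below control.

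Among transcription regulators, the 278 Zfp genes above background, mostly zinc finger repressors, had 67 (24.1%) lower by 0.1 or more and 53 higher. Under quantile normalization these were 59 and 61. The main set as deposited had 23.4% lower and 16.6% higher. Of 46 other zinc finger genes, 9 (19.6%) were lower and 14 higher, with Zbtb44 at 9.06, 9.40 and 9.32. Of 16 circadian clock genes, 1 was lower and 4 higher, with Clock at 11.45, 11.84 and 11.67 and Nfil3 at 11.30, 11.54 and 11.54. Of 22 ligands and receptors of the TNF superfamily, 3 were lower and 7 higher, among them Tnfrsf1a, the main TNF receptor, at 10.76, 11.02 and 10.48, while Tnfrsf1b was at 14.32, 14.10 and 14.15. In the BCL2 family and caspases, 7 of 34 were lower and 7 higher. Casp2 was at 10.01, 10.44 and 10.30, Ripk3, the kinase of necroptosis, at 9.92, 10.33 and 10.41 and Casp6, an executioner caspase, at 10.17, 9.78 and 9.78.

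Over all 65 gene lists, 54 had more members lower than higher, 9 more higher and 2 as many, and 36 had a median of 0. A median of -0.05 or below was found for 6 lists and one of 0.05 or above for 1. The main set itself had more genes lower, so the direction of a list is read only beside 23.4% and 16.6%.

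**Figure D5:**
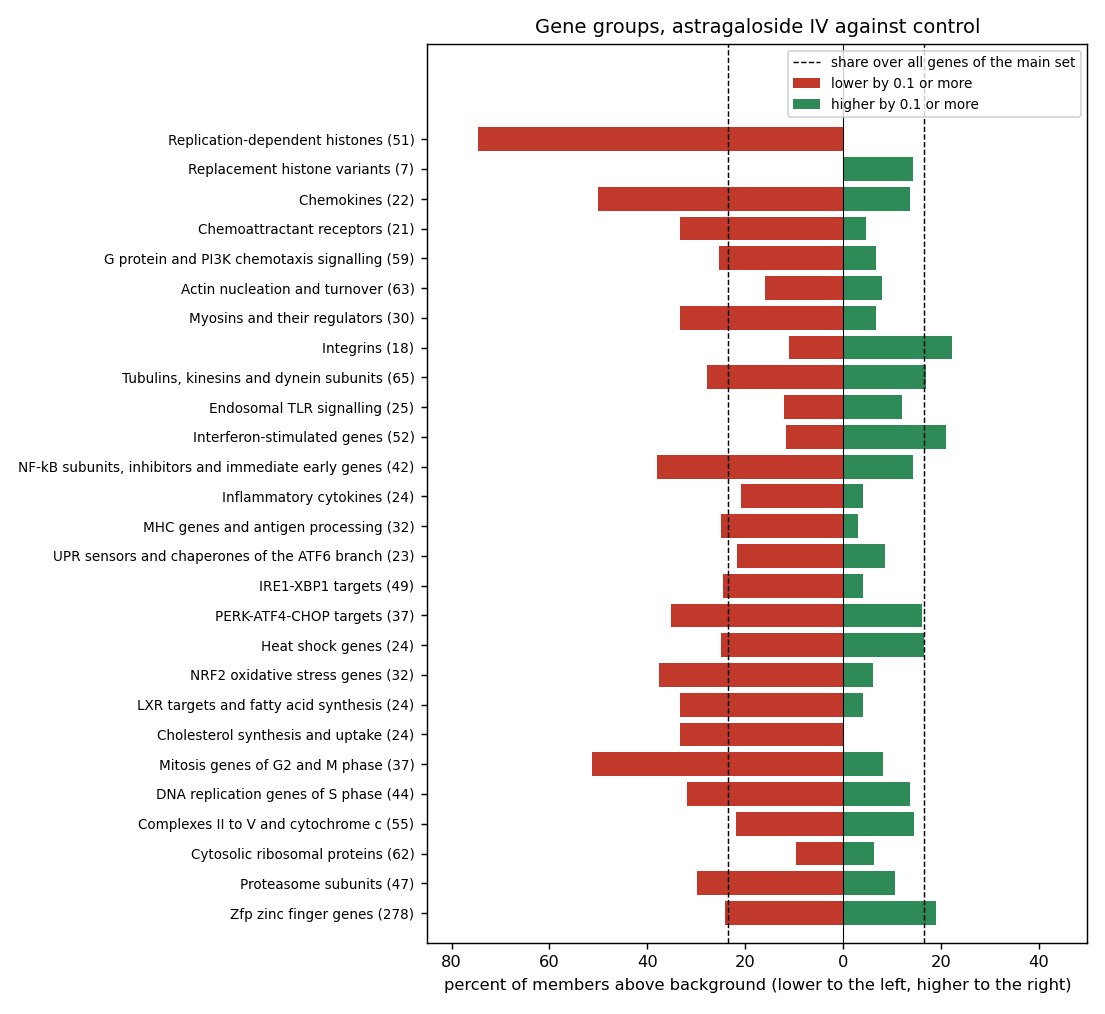
Bars give the percent of a group's members above background that were lower (left) or higher (right) by 0.1 or more in the astragaloside IV array than in control, with the number of members in brackets. Dashed lines are the shares over the main set, 23.4% and 16.6%. Replication-dependent histones reach 74.5% on the left, mitosis genes 51.4%, and cytosolic ribosomal proteins stay inside both lines.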

How the data were processed

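Total RNA of 3 samples was labelled with biotin by a whole-transcript kit and hybridised to 1 Affymetrix array each, per the labels' protocols. The deposited values are log2 levels made by the authors with RMA, per the submitters' processing notes; its variant, its software and the array's genome build: not given in the sources used here. Values were used as deposited. No scanner files were used, so signal over background could not be read per probe, and the number of arrays limits the precision.

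Of 28846 probe sets, 19572 had 1 gene symbol in the platform annotation of 2019, 9274 lacked one and 0 held more than 1. The RefSeq gene table held each of their 19572 Entrez identifiers, with 0 symbols changed. Where a gene had more than 1 probe set (55 genes), that of highest mean was kept. Differences were counted by size with no test. The members, the 65 gene lists and the thresholds were chosen with earlier results of these data known, and the step of 0.1 and 10 further groups after the values were seen.

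Genes were named by a rule: the 15 highest and 15 lowest bright genes, up to 6 members of each list, bright ones before dim, by size of difference, a fixed set of identity and migration genes, the Ypel family and the genes nearest 1.5-fold. Hk2, Ly6d, H2bc11, H2bc14, Ube2c, Rela, Rel, Relb, Acaca and the genes in which astragaloside IV stood apart were chosen after their values were seen. Small RNAs, numbered clones and predicted genes entered counts only. 1 of the gene lists is not reported here. Alternatives were other level filters or none, bright thresholds of 8 and 10, centring on the median, quantile normalization, lowess centring (fraction 0.3) and means over probe sets. The scripts were tested on simulated data. The software was Python 3.11.15 (pandas 2.3.3, numpy 2.4.6, matplotlib 3.10.9, statsmodels 0.14.6).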

Additional observations from a re-analysis of the deposited data

Results flagged for a closer look

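Probe sets outside the gene comparison also differed between the arrays. Over 5222 intronic control probe sets the mean difference astragaloside IV minus control was 0.1586, and the medians of the control, astragaloside IV and oxymatrine arrays were 5.33, 5.49 and 5.51. Over the 4 poly-A spikes the mean difference was 0.2102, and all 4 were higher with astragaloside IV. Both stood out as signal in data the gene comparison does not use, above the level in the control array. Over 1324 exonic control probe sets the mean difference was -0.04, over 63 ERCC probe sets it was below 0.01, and 22 of the 23 GC-matched background probe sets were equal. The part of these differences in the gene comparison was not tested.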

How the results depend on the processing

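No paired analysis was possible because each group holds 1 array. With no level filter, 7152 genes were lower and 6492 higher, 4405 and 4012 by 0.1 or more, 1462 and 1398 at a log2 difference of 0.322, 367 and 387 at 1.5-fold and 37 and 42 at 2-fold. With the filter at the 99th percentile of the receptor genes, 9 genes were lower and 2 higher at 2-fold, and with both arrays required at the filter level 11 were lower. The number of genes higher at all was 6400 after centring on the median, 6497 after quantile normalization and 6125 after lowess centring, since exact ties then take a side. With bright genes taken from a level of 8, 30 were lower and 18 higher at 1.5-fold and 296 and 145 at 0.322. From a level of 10, 5 and 2 remained at 1.5-fold and 120 and 51 at 0.322. Of 455 list medians recomputed, 454 moved by 0.1 or less, which the rule counts as no change. The neutrophil markers went to -0.01 without a filter. As deposited, 36 of the 65 lists had a median of 0, so a step of 0.1 is wide beside most medians. A change of sign was scored only for the 7 lists with a median of 0.05 or more in size, and 0 changed sign. These counts therefore say little about how firm a small median is. Dim genes limit what can be read, since the spread grows toward background.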
